A study of Mus musculus with 23 samples.

Results

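MiR-22 was measured as the counts of its 2 mature arms, mmu-miR-22-3p and mmu-miR-22-5p, which were taken by name as 2 of the 1218 mature miRNAs counted by small RNA sequencing in the liver of 23 F3 male C57bl/6J mice. The reference group (n = 8, STD_Cont in the labels) came from the control lineage, whose breeding diet held high oleic sunflower oil, and was then fed a low-fat diet. The HFoleic group (n = 8, HFD_Cont) came from the same lineage and was fed a high-fat, high-sucrose diet. The HFepa group (n = 7, HFD_O3) came from the omega 3 lineage, whose breeding diet held a fish oil rich in eicosapentaenoic acid (EPA), and received that same high-fat, high-sucrose diet. HFoleic vs. reference therefore asks about the diet within 1 lineage, HFepa vs. HFoleic about the lineage under 1 diet, and HFepa vs. reference about diet and lineage together. Each mouse gave 1 library, and whole liver was used, so fewer cells of a type and less RNA per cell cannot be told apart in these values.

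A miRNA gene is transcribed as a longer RNA with a hairpin, from which Drosha and Dicer cut a short duplex. One strand of the duplex usually stays in an Argonaute protein as the guide that pairs with target mRNAs through its seed (bases 2 to 8), while the opposite strand is mostly degraded. MiR-22-3p is the strand usually found as the guide, and targets reported for it include the deacetylases Hdac4 and Sirt1 and the nuclear receptor Ppara, an activator of fatty acid oxidation genes. MiR-22 is abundant in hepatocytes and has been studied in relation to steatosis and fatty acid oxidation. Much less is known of targets of miR-22-5p.

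Both mature sequences are shown because every value below counts reads of one or the other, with the seed in capitals (RefSeq, GRCm38.p6, written 5′ to 3′):
mmu-miR-22-3p: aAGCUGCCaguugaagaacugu
mmu-miR-22-5p: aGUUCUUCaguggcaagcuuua

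The seeds of the 2 arms differ, and among 1679 mature mouse miRNAs in the RefSeq table no other miRNA holds the 7-base seed of either arm, so neither arm belongs to a larger seed family there. No other mature miRNA of that table contains the first 18 bases of either arm, so no listed copy competes for their reads. Both arms are 22 bases long, so their counts were compared with no correction for length. They come from 1 hairpin of 95 bases on the plus strand at chr11:75463716-75463810 (GRCm38.p6), with miR-22-5p at chr11:75463734-75463755 and miR-22-3p at chr11:75463772-75463793. In the GENCODE annotation of GRCm38, the hairpin lies inside exon 2 of Mir22hg, a long noncoding host gene at chr11:75461539-75466676, and thus in an exon and not in an intron. The hairpin is shown with the mature arms in capitals, miR-22-5p first, because the ratio of the arms is a result below:
Mir22 hairpin: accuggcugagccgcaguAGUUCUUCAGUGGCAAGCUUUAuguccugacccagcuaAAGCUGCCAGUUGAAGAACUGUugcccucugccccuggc

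In the fold that RNAfold predicts for this sequence (-41.9 kcal/mol), 21 of the 22 bases of each arm were paired, with 19 base pairs between the arms.

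Library totals lay between 3725432 and 8139344 counts. They ran from 3725432 to 4947990 in HFepa, 4340903 to 7220112 in HFoleic and 5242218 to 8139344 in reference libraries. Totals of HFepa and reference libraries thus did not overlap, and in that comparison they cannot be told apart from the group. The hepatocyte marker miRNAs (6 of 6 detected) summed to 265073 to 358685 CPM in all libraries but 1. CPM, counts per 1e6 counts of a library, were computed here after TMM scaling of the library size. Reference libraries 3, 4 and 5 stood apart in marker lists. Library 3 had the lowest hepatocyte sum, 188654 CPM, the highest biliary sum, 1094 CPM against 151 to 333 CPM in the others, the highest stellate and fibroblast sum, 42501 CPM, and a TMM factor of 1.256. Library 4 held 219 CPM of muscle and heart miRNAs against 1.59 to 12.4 CPM in the others, and library 5 held 2021 CPM of pancreas miRNAs against 9.47 to 57.4 CPM. No miRNA of these lists was at 0 in every library. Without these 3 libraries, the number of called miRNAs fell from 48 of 386 to 2 of 390 in HFoleic vs. reference and from 61 of 386 to 32 of 390 in HFepa vs. reference. Tests of miR-22 against the reference group are given below with and without them, and the part of these cell types in the results was not tested.

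MiR-22-3p was among the miRNAs with the most counts in these livers. Counts of different miRNAs were not calibrated to amounts of RNA, so shares and ranks describe counts. It held 18.02% of all counts, second to miR-192-5p (20.4%), a miRNA enriched in hepatocytes and intestine, and ahead of miR-148a-3p (8.02%), another abundant hepatocyte miRNA. Its share of a library ran from 15.8% in HFoleic library 14 to 20.1% in HFoleic library 15. It ranked first in reference library 3 and HFepa library 22 and second in every other library. MiR-22-5p ranked 145 over all libraries, with 0.00758% of the counts. Its highest share was in HFoleic library 14, where 522 counts of 5234661 gave 0.00997% (exact Clopper-Pearson 95% interval 0.00913% to 0.0109%, which covers counting error only). A library held 659422 to 1365306 counts of miR-22-3p and 231 to 584 of miR-22-5p. For miR-22-3p the coefficient of variation of CPM between mice was 10.7% among reference mice, 8.07% among HFoleic and 7.31% among HFepa mice, against a counting error of about 0.1%. By share of counts, which uses no TMM factor, it was 4.27%, 7.69% and 4.84%. For miR-22-5p the variation of CPM was 10.7%, 12.8% and 14.1%, against a counting error of 4.79%, 4.67% and 5.78%. By share it was 6.66%, 10.8% and 18.6%. In CPM the spread between mice was thus larger than counting error for both arms, by far for miR-22-3p and by 2 to 3 times for miR-22-5p.

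**Figure D1:**
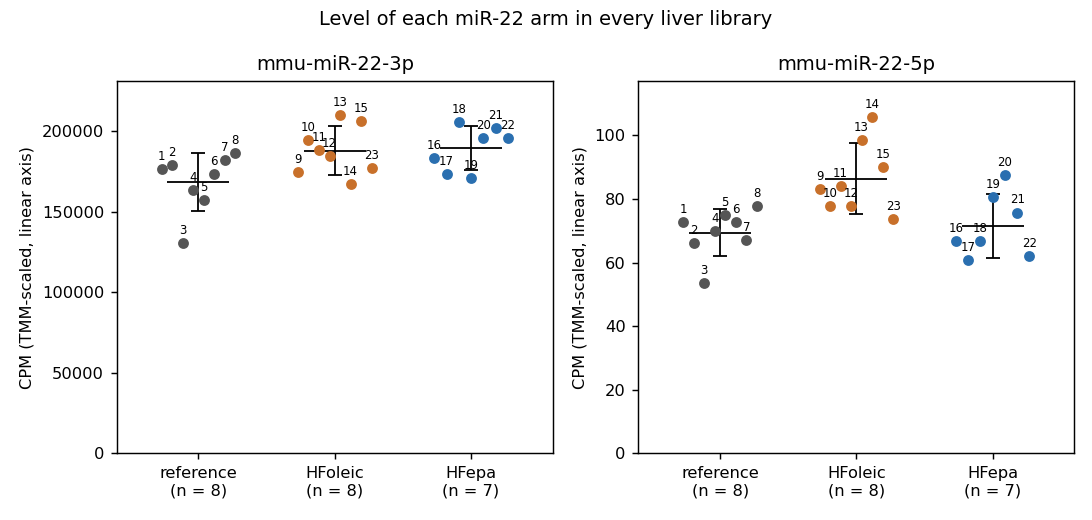
CPM after TMM scaling of miR-22-3p (left) and miR-22-5p (right) in each of the 23 liver libraries, by group. Points carry library numbers and bars show the mean ± SD. Reference library 3 is the lowest point of both arms, and 7 of 8 HFoleic libraries lie above every reference library for miR-22-5p.

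MiR-22-3p was at a lower mean level in the reference group than in both high-fat groups, by a difference that did not pass the test. In the reference libraries it ran from 130370 CPM (library 3) over a median of 174877 CPM to 186014 CPM (168400 ± 18079 CPM, mean ± SD, n = 8). In HFoleic it ran from 167164 CPM (library 14) over a median of 186120 CPM to 209861 CPM (187670 ± 15153 CPM, n = 8). In HFepa the lowest library had 170568 CPM, the median was 195806 CPM and the highest 205814 CPM (189468 ± 13850 CPM, n = 7). The groups overlapped, with 4 of 8 HFoleic and 4 of 7 HFepa libraries above every reference library.

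In HFoleic vs. reference the log2 fold change of miR-22-3p was 0.16 (SE 0.066, 95% interval 0.02 to 0.29, adjusted p = 0.128). A miRNA was called where edgeR's quasi-likelihood test, adjusted by Benjamini-Hochberg over all 386 tested miRNAs, gave an adjusted p under 0.05 and the absolute log2 fold change was over 0.25, and all adjusted p-values below come from that test unless another is named. In HFepa vs. reference the log2 fold change was 0.17 (SE 0.069, 95% interval 0.03 to 0.31, adjusted p = 0.0923). Both differences depended on the reference libraries that stood apart. Without library 3 they were 0.11 (adjusted p = 0.168) and 0.12 (adjusted p = 0.1204), and without libraries 3, 4 and 5 together they were 0.03 (adjusted p = 0.839) and 0.05 (adjusted p = 0.644). With any 1 library left out, the adjusted p ran from 0.0378 to 0.352 in HFoleic vs. reference and from 0.0292 to 0.207 in HFepa vs. reference, and the fold threshold was passed in none of these fits. The share of counts, which uses no TMM factor, averaged 17.3% ± 0.737 (SD) for reference, 18.4% ± 1.41 for HFoleic and 18.7% ± 0.906 for HFepa libraries, and in reference library 3 it was 16.4%, above the 16.2% of library 5. HFepa and HFoleic had nearly the same mean level of miR-22-3p, with a log2 fold change of 0.01 in HFepa vs. HFoleic and a 95% interval from -0.13 to 0.16 (adjusted p = 0.968).

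MiR-22-5p was higher in HFoleic than in the reference group. It ran from 53.6 CPM (library 3) over a median of 71.4 CPM to 77.7 CPM in the reference libraries (69.4 ± 7.46 CPM, n = 8). In HFoleic the lowest library had 73.8 CPM, the median was 83.6 CPM and the highest library, library 14, had 105.8 CPM (86.4 ± 11.1 CPM, n = 8). In HFepa the values ran from 60.7 CPM over a median of 66.9 CPM to 87.5 CPM (71.5 ± 10.1 CPM, n = 7). The HFoleic libraries lay above the highest reference library except for library 23, although libraries 10 and 12, both at 77.8 CPM, cleared it by very little. Of the 7 HFepa libraries, 2 were above every reference library, and reference library 3 was below every HFepa library. The low place of library 3 depended on its TMM factor. By share of counts, which uses no such factor, library 3 held 0.00674%, above reference libraries 2 (0.00650%) and 7 (0.00658%). It was also above HFepa libraries 16 (0.00647%), 17 (0.00602%), 18 (0.00621%) and 22 (0.00597%).

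The log2 fold change of miR-22-5p in HFoleic vs. reference was 0.32 (SE 0.0946, 95% interval 0.12 to 0.51, 1.24-fold, adjusted p = 0.0323). MiR-22-5p was thus the 1 of the 2 arms called in this comparison, in which 12.4% of all tested miRNAs were called. It ranked 35 of 386 by p and 125 of 386 by the size of the change. No arm was called in HFepa vs. reference, where 15.8% of the tested miRNAs were called, or in HFepa vs. HFoleic, where 0% were. The call was close to the threshold. Without reference library 3 the log2 fold change was 0.27 (adjusted p = 0.0447), whereas without libraries 3, 4 and 5 together it was 0.23 (adjusted p = 0.184) and no longer called. Leaving out library 4, library 5, or HFoleic library 13, 14 or 15 alone also ended the call, with adjusted p-values of 0.0512, 0.0755, 0.0653, 0.0891 and 0.0616.

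The library numbers follow the groups: reference libraries are 1 to 8, HFoleic libraries 9 to 15 and 23, and HFepa libraries 16 to 22. No source used here says that the numbers mark a batch. Among libraries 1 to 11, which hold all reference and 3 HFoleic mice, the log2 fold change of miR-22-5p was 0.24 (adjusted p = 0.662) and that of miR-22-3p 0.14 (adjusted p = 0.681). There, 0 of 409 tested miRNAs were called. With a term for the 2 runs of numbers, HFoleic vs. reference gave 0.23 for miR-22-5p (adjusted p = 0.478), and 1 of 386 tested miRNAs was called. Anything tied to the number cannot be told apart from the group in HFepa vs. reference.

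In HFepa vs. reference the log2 fold change of miR-22-5p was 0.04 (95% interval -0.16 to 0.24, adjusted p = 0.818), and it was -0.02 without libraries 3, 4 and 5, -0.0029 without library 3 and -0.014 without HFepa library 20. In HFepa vs. HFoleic it was -0.27 (SE 0.0983, 95% interval -0.48 to -0.07, unadjusted p = 0.0107, adjusted p = 0.525). In this comparison 4 of 7 HFepa libraries were below every HFoleic library and 6 of 7 were below the HFoleic median, but 22 of the 386 tested miRNAs had an unadjusted p under 0.05 in edgeR's quasi-likelihood test and none passed the adjustment. Over all tested miRNAs, DESeq2 and quantile normalization with limma each called 0 there and limma-voom called 1. MiR-22-5p ranked 7 of 386 by p there. Among libraries 12 to 23 alone the log2 fold change was -0.31 (adjusted p = 0.767).

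**Figure D2:**
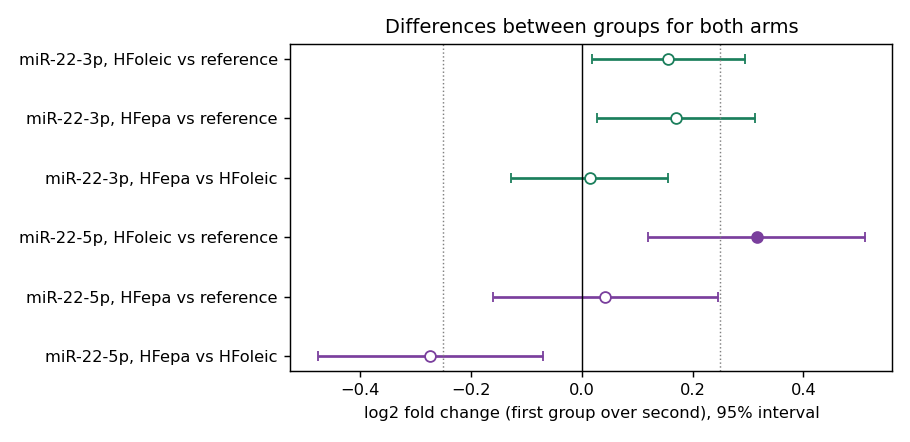
Log2 fold changes of miR-22-3p and miR-22-5p in the 3 comparisons with 95% intervals from edgeR's fit. The filled point was called, and dotted lines mark the fold threshold of 0.25 in each direction. The filled point is miR-22-5p in HFoleic vs. reference at 0.32.

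**Figure D3:**
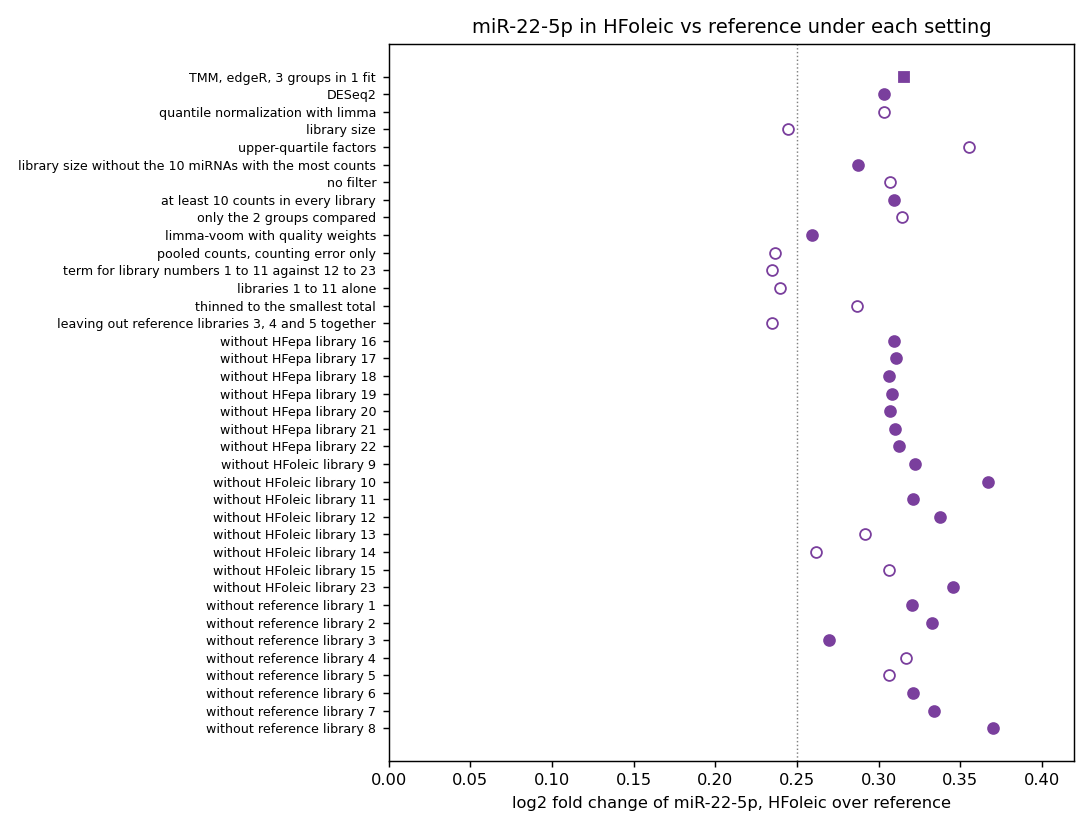
Log2 fold change of miR-22-5p in HFoleic vs. reference under each processing setting and with each library left out. Filled points passed both thresholds, the square is the value reported above, and the dotted line marks 0.25. All points lie between 0.23 and 0.37.

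The ratio of the arms needs no scaling factor, since both counts come from the same library. The counts of miR-22-3p per count of miR-22-5p ran from 2091 over a median of 2406 to 2708 in the reference group (2432 ± 198, n = 8). In HFoleic they ran from 1580 (library 14) over a median of 2262 to 2496 (2199 ± 285, n = 8). In HFepa the lowest library had 2115, the highest 3154, and the mean was 2692 ± 395 (n = 7). In 5 of 7 HFepa libraries the ratio was above every HFoleic library, while the other two, libraries 19 and 20, lay within the HFoleic range.

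On the log2 scale, the ratio was 0.29 higher in HFepa than in HFoleic (SE 0.111, two-sided exact permutation p = 0.0179, adjusted p = 0.0536 over the 3 comparisons). In HFoleic vs. reference it was -0.15 (SE 0.0842, exact permutation p = 0.0726, adjusted p = 0.109), and in HFepa vs. reference 0.14 (SE 0.0930, exact permutation p = 0.151, adjusted p = 0.151). None of the 3 differences passed after adjustment, and the first missed the threshold by little. Without libraries 3, 4 and 5, HFoleic vs. reference gave -0.21 (exact permutation p = 0.0389, adjusted p = 0.0583) and HFepa vs. reference 0.084 (exact permutation p = 0.434). Without HFoleic library 14, HFoleic vs. reference gave -0.087 (exact permutation p = 0.144), and among libraries 1 to 11 it gave -0.096 (exact permutation p = 0.267). Among libraries 12 to 23 the HFepa vs. HFoleic difference was 0.32 (exact permutation p = 0.0354, with no adjustment since it is the 1 comparison there). With HFoleic library 14 left out the HFepa vs. HFoleic difference was 0.22 (adjusted exact permutation p = 0.0962). The HFepa vs. HFoleic difference passed the adjustment when HFoleic library 10 (0.32, adjusted exact permutation p = 0.0455), HFepa library 19 (0.35, p = 0.0130) or HFepa library 20 (0.33, p = 0.0280) was left out. Leaving out reference library 5 gave -0.18 in HFoleic vs. reference (adjusted exact permutation p = 0.0340) and leaving out HFoleic library 10 gave -0.18 (adjusted exact permutation p = 0.0483), and without library 5 the HFepa vs. HFoleic difference passed as well, since the p-values are adjusted together (adjusted exact permutation p = 0.0340).

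**Figure D4:**
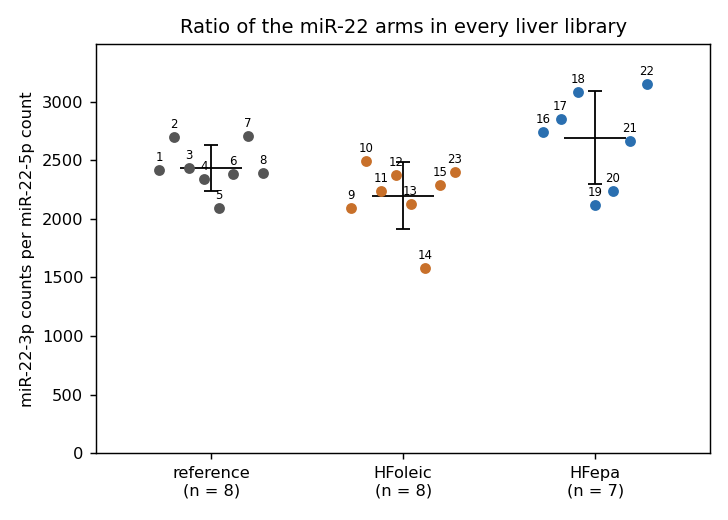
Counts of miR-22-3p per count of miR-22-5p in each of the 23 libraries, by group, with library numbers and the mean ± SD. HFoleic library 14 is the lowest at 1580, and 5 of 7 HFepa libraries lie above all HFoleic libraries.

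By counts, which were not calibrated between the arms, miR-22 was among the most one-sided of the 100 hairpins compared here. These were the hairpins whose 2 arms both passed the filter and had the same name apart from the arm. Hairpins with an arm that failed the filter, which can be more one-sided, were left out. So were arms with a numbered name, such as miR-26a-2-3p. MiR-122 and miR-122b entered separately, with log2 ratios of -4.07 and 4.09. Of the 100, 44 had more counts of the 3p arm and 56 more of the 5p arm, with a median imbalance of 15.2-fold in either direction. Among these 100, the imbalance of miR-22, 2402-fold, was exceeded only by those of miR-143 (12636-fold toward 3p) and miR-192 (2997-fold toward 5p). Within groups, the SD of its log2 ratio was 0.187, against a median of 0.331 over the hairpins, and 20 hairpins had a smaller one. In a limma fit of the log2 ratio over all 100 hairpins, miR-22 was not called in any comparison (Benjamini-Hochberg adjusted). For HFoleic vs. reference its adjusted p was 0.309, with 15% of the hairpins called. For HFepa vs. reference it was 0.381, with 19% called. For HFepa vs. HFoleic it was 0.220, with 0% called and miR-22 ranked 4 of 100 by p. Without libraries 3, 4 and 5, limma's adjusted p for HFoleic vs. reference was 0.262, with 2% of the hairpins called, and for HFepa vs. reference 0.632, with 12% called.

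**Figure D5:**
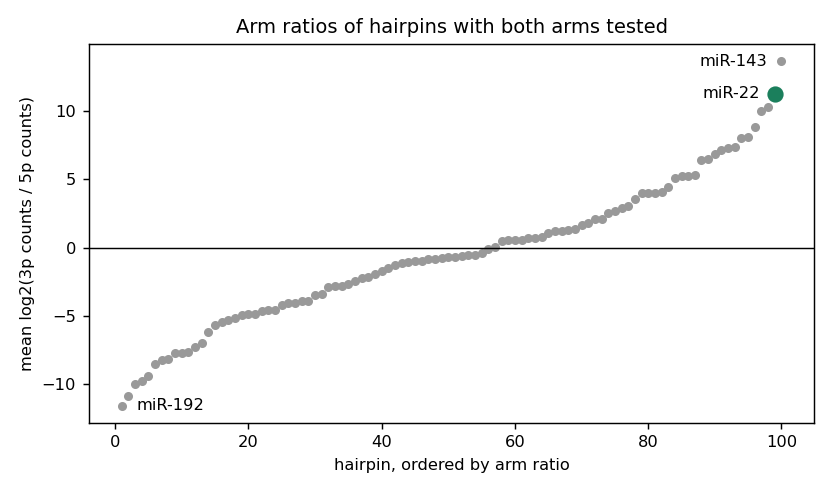
Mean log2 ratio of 3p to 5p counts for the 100 hairpins with both arms tested under matching names, in increasing order. Points above 0 have more 3p counts. MiR-22, the larger point, is second from the top at 11.23, after miR-143.

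Libraries high in one arm were not clearly high in the other. Over the 23 libraries the log2 CPM of the arms had a Pearson r of 0.414 (permutation p = 0.0509) and a Spearman rho of 0.282 (permutation p = 0.191). Without reference libraries 3 and 5, which were farthest from the median of miR-22-3p, r was 0.152, and without library 3 alone it was 0.147, whereas without library 5 alone it was 0.432 (permutation p = 0.0458). The pooled relation thus rested on library 3, whose TMM factor of 1.256 scaled both arms together. From shares of counts, without TMM, r over the 23 libraries was 0.176 (permutation p = 0.418). Within groups r was 0.747 for reference, 0.0757 for HFoleic and 0.0640 for HFepa libraries (exact permutation p = 0.0763, 0.856 and 0.893). Without the 2 libraries of a group farthest from its median of miR-22-3p, r was 0.217 for reference, 0.583 for HFoleic and 0.112 for HFepa libraries. Adjusted over these 4 relations, the smallest p for r was 0.153 and the smallest p for rho was 0.762.

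The miRNAs whose levels followed each arm most closely were different for the 2 arms. Among the 257 miRNAs averaging 10 CPM or more, the 5 with the highest Spearman rho with miR-22-3p over the 23 libraries were miR-28a-5p (0.705), miR-15a-5p (0.657), miR-1843a-5p (0.650), miR-29c-3p (0.635) and miR-30d-5p (0.611). For miR-22-5p they were miR-802-5p (0.782), miR-107-3p (0.771), miR-103-3p (0.765), miR-192-3p (0.733) and miR-802-3p (0.727). The other arm ranked 68 for miR-22-3p and 54 for miR-22-5p, with a rho of 0.282. These are descriptions over libraries that share their scaling factors and the group differences. Within groups, after the group means were removed, Pearson's r with miR-22-5p was 0.427 for miR-802-5p, 0.678 for miR-107-3p and 0.594 for miR-103-3p. It was 0.624 for miR-192-3p and 0.360 for miR-802-3p. With miR-22-3p it was 0.576 for miR-28a-5p, 0.680 for miR-15a-5p, 0.831 for miR-1843a-5p, 0.798 for miR-29c-3p and 0.643 for miR-30d-5p.

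A list of 24 miRNAs studied in liver lipid metabolism gave the setting for miR-22, and 23 of them were tested. In HFoleic vs. reference, where 12.4% of all tested miRNAs were called, 2 of the 23 were called higher and 1 lower, with a median log2 fold change of 0.04 against -0.0024 over all tested miRNAs. In HFepa vs. reference, where 15.8% were called, 0 were called higher and 2 lower, with a median of -0.00029 against -0.06, and in HFepa vs. HFoleic 0 were called, with a median of 0.0023 against -0.02. The shares called in the list were thus near or under those of all tested miRNAs. Without libraries 3, 4 and 5, 0 of the 23 were called in HFoleic vs. reference (0.513% of all tested) and 1, miR-128-3p, in HFepa vs. reference (8.21% of all tested). The 2 that were higher in HFoleic were miR-107-3p, which lies in a Pank gene intron and has been studied in insulin sensitivity, and miR-33-5p, which lies in a Srebf gene and targets the cholesterol transporter Abca1. MiR-107-3p rose from 979 ± 205 to 1282 ± 127 CPM (log2 fold change 0.39, adjusted p = 0.0357), and miR-33-5p from 7.42 ± 2.04 to 11.1 ± 1.61 CPM (0.58, adjusted p = 0.0278). Without libraries 3, 4 and 5 these log2 fold changes were 0.21 (adjusted p = 0.218) and 0.39 (adjusted p = 0.182). MiR-128-3p, which has been studied as a repressor of the LDL receptor and of Abca1, was lower in HFoleic (45.1 ± 3.87 against 32.2 ± 8.39 CPM, log2 fold change -0.49, adjusted p = 0.0311). It was also lower in HFepa (29.1 ± 6.60 CPM, log2 fold change -0.63). Without the 3 libraries miR-128-3p was at -0.52 in HFoleic vs. reference (adjusted p = 0.111) and at -0.67 in HFepa vs. reference (adjusted p = 0.0320). MiR-10b-5p was called lower in HFepa (log2 fold change -2.36, adjusted p = 0.04998). Its reference libraries ran from 280 over a median of 713 to 20240 CPM (library 5). The HFepa libraries ran from 354 over a median of 474 to 1291 CPM, all within the reference range. Without the 3 libraries the log2 fold change of miR-10b-5p turned to 0.37 (adjusted p = 0.684). Of these, miR-107-3p was also among the miRNAs most like miR-22-5p.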

How the data were processed

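Small RNA libraries of 23 livers were analysed, 1 per mouse, grouped by the lineage and diet in their labels. The authors trimmed adapters with the FASTX-Toolkit, aligned reads with Bowtie in ncPRO-seq, and deposited raw read counts per mature miRNA of miRBase. The labels name the build mm10, whereas the methods name GRCm38.p6 and mm9; the counts carry no coordinates. The deposited signal columns are the same counts divided by 1 factor per library and entered no test. The authors' comparison columns (group means, log2 fold changes, p-values) were not used.

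Of 1218 miRNAs, 386 passed filterByExpr and hold 99.98% of the counts. TMM and edgeR's quasi-likelihood test with 3 groups in 1 fit replaced the paper's DEGseq and quantile normalization. The arm ratio was tested by exact permutation of libraries. Correlations were tested by 100000 resamples, and within single groups by all permutations. The ratio over 100 hairpins used a pseudocount of 0.5 with limma. Alternatives are named in the closing section; thinning was to 3725432 counts. Leaving out reference libraries 3, 4 and 5 together was chosen after seeing the data. Fits were tested on simulated data. Members and lists were chosen with earlier results of these data known. Beside the members, the text names the 3 miRNAs with the most counts, the 5 most like each arm, and list members called in any comparison; miR-143 and miR-192 were named after their values were seen. Software was R 4.3.3, edgeR 4.0.16, DESeq2 1.42.0, limma 3.58.1, RNAfold 2.7.2, Python 3.11.15, pandas 2.3.3 and matplotlib 3.10.9.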

Additional observations from a re-analysis of the deposited data

Results flagged for a closer look

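In a check of 12 sets of values (both arms, their log2 ratio and the TMM factor, each in 3 groups), 3 libraries lay far from the rest of their group by Dixon's gap criterion, which marks about 5% of groups by chance. In HFoleic library 14 the log2 ratio of miR-22-3p to miR-22-5p was 10.63, the lowest of all 23 libraries. This library had the lowest CPM of miR-22-3p and the highest of miR-22-5p in its group. In reference library 3 the TMM factor was 1.256, and in HFepa library 19 it was 1.128. Library 19 had the lowest hepatocyte marker sum of its group, 265073 CPM.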

How the results depend on the processing

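The call of miR-22-5p in HFoleic vs. reference (log2 fold change 0.32) held under DESeq2 (0.30), limma-voom (0.26), a library size without the 10 most counted miRNAs (0.29), at least 10 counts in every library (0.31) and no fold change threshold. It was lost with quantile normalization and limma (0.30), library size (0.24), upper-quartile factors (0.36), no filter (0.31), only the 2 groups compared (0.31), thinning (0.29), pooled counts (0.24), a term for the library number (0.23), libraries 1 to 11 alone (0.24), and reference libraries 3, 4 and 5 left out (0.23). Adjusted p-values ran from 6.90e-12, with reads and not mice as the error, to 0.662. The direction was kept in every setting. With each library left out in turn it ran from 0.26 to 0.37, and 18 of 23 fits kept the call.

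MiR-22-3p was called in 0 settings of any comparison. In HFoleic vs. reference it was -0.025 with quantile normalization, which gives each rank 1 value, and miR-22-3p held the same rank in nearly all libraries. Leaving out 1 library gave 0.11 to 0.21, 0.12 to 0.21 in HFepa vs. reference, and 5.4e-05 to 0.05 in HFepa vs. HFoleic. HFepa vs. HFoleic turned to -0.0091 with upper-quartile factors, -0.0092 without the 10 most counted miRNAs and -0.0047 with at least 10 counts in every library. In HFepa vs. reference, miR-22-5p turned to -0.0044 with library size, -0.014 with limma-voom, -0.011 with pooled counts, -0.086 with the number term and -0.023 without libraries 3, 4 and 5, and ran from -0.014 to 0.10 with 1 library left out. In HFepa vs. HFoleic it ran from -0.32 to -0.21.

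The arm ratio in HFepa vs. HFoleic passed without the log (493.4 higher, adjusted p = 0.0438 by exact permutation) and after thinning (0.31). Among libraries 12 to 23 (0.32) its p of 0.0354 by exact permutation needed no adjustment, since it is the 1 comparison there, and was larger than the unadjusted 0.0179 over all libraries. With 1 library left out it ran from 0.22 to 0.35, from -0.18 to -0.087 (without HFoleic library 14) in HFoleic vs. reference and from 0.10 to 0.19 in HFepa vs. reference. The correlation of the arms was 0.747 in libraries 1 to 11, 0.0461 in libraries 12 to 23, 0.176 without TMM, and ran from 0.147 without reference library 3 to 0.566 without HFoleic library 14; its permutation p was under 0.05 in 7 of 23 such fits. The causes of these changes were not tested. No paired analysis was possible because the labels give the groups no shared replicate numbers.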
